A study of Mus musculus with 4 samples.

Results

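The chaperone and heat shock genes were examined in splenic Treg cells with and without Setd2, the methyltransferase that trimethylates lysine 36 of histone H3. They were taken by gene symbol, as those that begin with Hspa, Hspb, Hspd, Hspe, Hsph or Hsp90, or with Dnaja, Dnajb, Dnajc, Cct or Hsf and a digit. The rule found 89 of the 24087 genes listed. Of these, 71 reached 1 FPKM in 2 or more libraries and were tested, and the other 18 were left out as low. FPKM counts sequenced fragments relative to the length of the gene and the size of the library, so it can be compared between genes.

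Treg cells were sorted as CD3+CD4+YFP+ from spleens of C57BL/6 mice at steady state. KO mice were Foxp3Cre-YFPSetd2f/f, and the controls (CTRL) were littermates of the genotype Foxp3Cre-YFPSetd2f/+. The controls thus also carried the Cre, which is driven from Foxp3 and acts in cells that have turned that gene on, and 1 floxed Setd2 allele. Each group had 2 libraries, each from about 1000000 cells pooled from 2 mice, so p-values measure the spread between such pools and not between single animals.

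Chaperones bind proteins that are not yet folded, or have come unfolded, and keep them from clumping until they fold. HSP70 proteins hold short hydrophobic stretches, with J proteins (the DNAJ families) that bring clients and start ATP use, and with exchange factors that let the client go. HSP90 proteins finish the folding of kinases and receptors, including signalling proteins of T cells, the HSP60 and CCT chaperonins enclose proteins in a chamber, and heat shock factors (HSF) switch many of these genes on under stress.

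The libraries were similar in depth. The reads recovered from the FPKM steps numbered at least 29988267 to 32686764 per library. Setd2 itself stood at 23.4 and 25.3 FPKM in the CTRL and 21.3 and 19.5 in the KO libraries, a log2 fold change of -0.24 with an adjusted p of 0.0970. Both KO libraries were below both controls, the difference did not pass the threshold, and the value is over the whole gene, so that it does not show which exons were read. Markers of Treg cells summed to 1576 and 1687 FPKM in CTRL and to 1666 and 1608 in KO, with Foxp3 at 111.6 to 139.8 FPKM in the 4 libraries. Lists of Treg, B cell, CD8 T cell, myeloid and erythroid markers held 0 genes past the threshold by limma. At an unadjusted p under 0.05 they held 2, 2, 0, 0 and 0, and limma-voom on the recovered reads called 1 B cell gene. Myeloid markers summed to 198.2, 119.8, 262.0 and 97.6 FPKM and erythroid markers to 22.7, 4.16, 38.5 and 11.4 FPKM in CTRL 1, CTRL 2, KO 1 and KO 2. Both sums were higher in the first library of each group than in the second, and the groups overlapped in both. Of 5 sex-linked genes, 0 passed by limma, 1 had an unadjusted p under 0.05 and limma-voom called 1 lower. Xist stood at 29.1 and 37.3 FPKM in CTRL against 23.4 and 23.3 in KO (log2 fold change -0.48, adjusted p = 0.0664), and 4 Y-linked genes were above 0 in every library with overlapping groups. The part of the sex of the pooled mice in the results was not tested. In bulk RNA, fewer cells of a type and less RNA per cell cannot be told apart.

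Few chaperone and heat shock genes differed between KO and CTRL past the threshold. Hsp90b1, the HSP90 of the endoplasmic reticulum (ER), and Hspa2, an HSP70 best known from the testis, rose, and Dnajc21, a J protein of ribosome assembly, fell. All other tested genes of the rule, the heat shock factors and the abundant cytosolic chaperones among them, stayed short of the threshold. The test was limma on log2(FPKM + 1), with p adjusted over all 11399 genes tested and a threshold of 0.05.

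Of the 71 genes tested, 2 were higher (2.82%) and 1 was lower (1.41%). Over all genes tested 5.10% were higher, 4.65% were lower and 9.75% passed in either direction. The 4.23% called among the chaperone genes is below this background, and the difference was not tested. At an unadjusted p under 0.05 there were 23 of 71 genes (32.4%), 15 of them higher and 8 lower in KO, where all genes gave 34.7%, with 16.3% higher and 18.4% lower. In 42 of 71 genes (59.2%) both KO libraries lay on the same side of both CTRL libraries, 20 above and 22 below, where all genes gave 64.5%, with 29.0% above and 35.5% below. Hsf2bp and Hspa12a are among the 15 higher and the 20 above. They passed the filter on low values through the KO libraries only, so their direction was built into their choice. The chaperone genes had a median log2 fold change of 0.0057, and all genes one of -0.022. The median of its size without sign was 0.14 and 0.16. The medians, and the shares in either direction at an unadjusted p or without overlap, lie near those of all genes. The share past the threshold is lower. At an unadjusted p more chaperone genes were higher than lower, where all genes leaned lower, and this was not tested.

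The 3 calls were narrow. Without CTRL 1, CTRL 2, KO 1 or KO 2 in turn, 0 chaperone genes passed the threshold in either direction, and over all genes 0 to 1 passed in each direction. The number of higher and lower chaperone genes was 2 and 0 with median-ratio scaling, where all 11399 genes gave 658 and 475. With quantile normalization it was 0 and 2, where all genes gave 524 and 479. By limma-voom on the recovered reads it was 8 and 2, where all genes gave 867 and 1024. The 8 include Hsf2bp and Hspa12a, which passed the filter through the KO libraries only. The median fold change of the chaperone genes was 0.040 without CTRL 1. It was below 0 when all libraries were scaled to the same summed FPKM, at -0.0076.

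**Figure D1:**
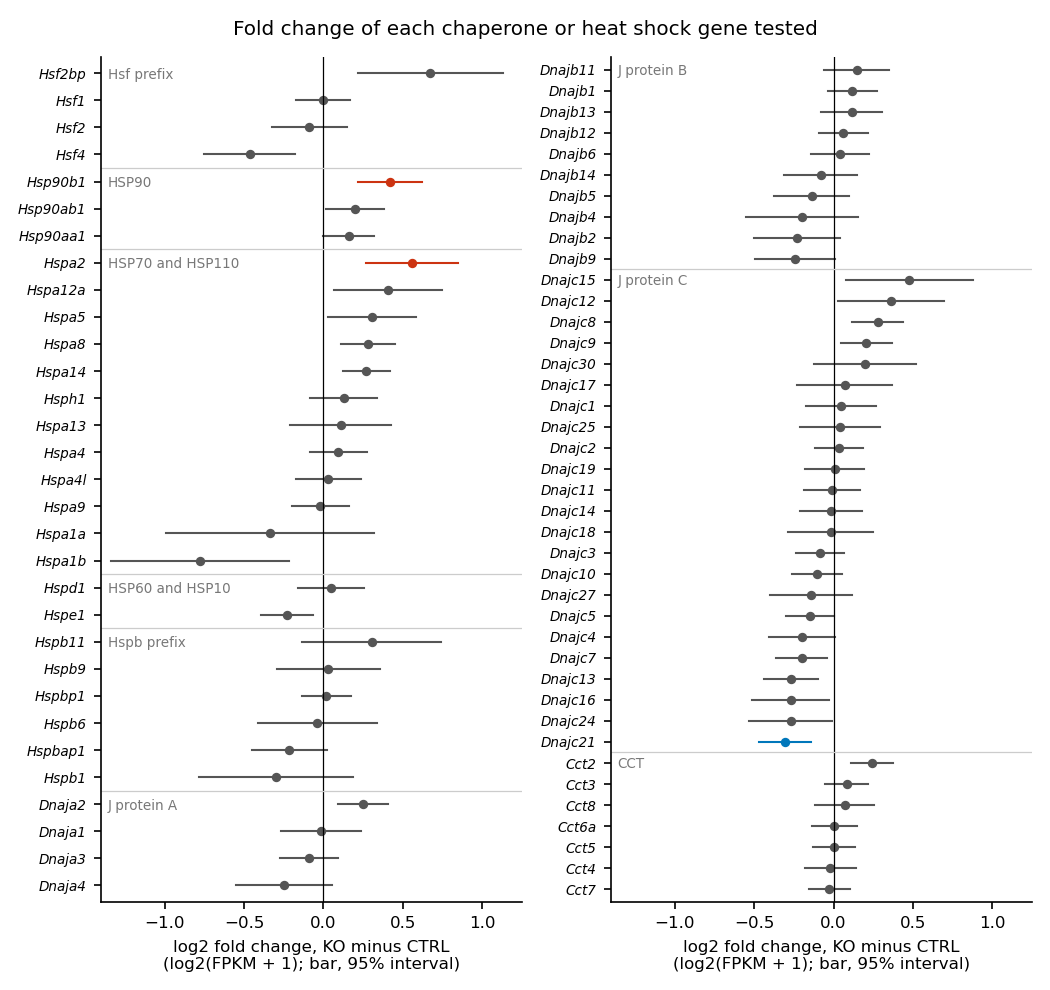
Log2 fold change (KO minus CTRL, on log2(FPKM + 1), x axis) of each of the 71 chaperone and heat shock genes tested, grouped by family. Points are estimates from 2 libraries per group, bars are 95% intervals of limma without adjustment for the number of genes, red marks genes higher and blue genes lower past the threshold, and the estimates run from -0.78 for Hspa1b to 0.67 for Hsf2bp.

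Although few genes passed the test, the family was abundant. The 89 genes summed to 0.876% and 0.851% of the FPKM of the CTRL libraries and to 0.969% and 0.922% in the KO libraries. Hspa8, Hsp90ab1 and Hspa5 alone made up 42.0% and 42.2% of this sum in CTRL and 46.6% and 44.3% in KO. The share of the library was thus higher in both KO than in both CTRL libraries. HSP70 and HSP110 genes held 0.254% and 0.255% of the CTRL and 0.321% and 0.284% of the KO libraries. HSP90 genes held 0.210% and 0.194% of CTRL and 0.240% and 0.228% of KO. CCT genes were also higher in both KO libraries, at 0.136% and 0.131% against 0.137% and 0.137%. HSP60 and HSP10 were lower in both, at 0.0381% and 0.0352% against 0.0340% and 0.0327%. For the HSF class and the A, B and C types of J proteins the groups overlapped, so the higher sum was not shared by every class. The 7 genes of the small heat shock protein family held only 0.00120% to 0.00163% of a library. With 2 libraries against 2, an exact permutation test of such a share cannot give a two-sided p below 0.333, so these shares are given as values.

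**Figure D2:**
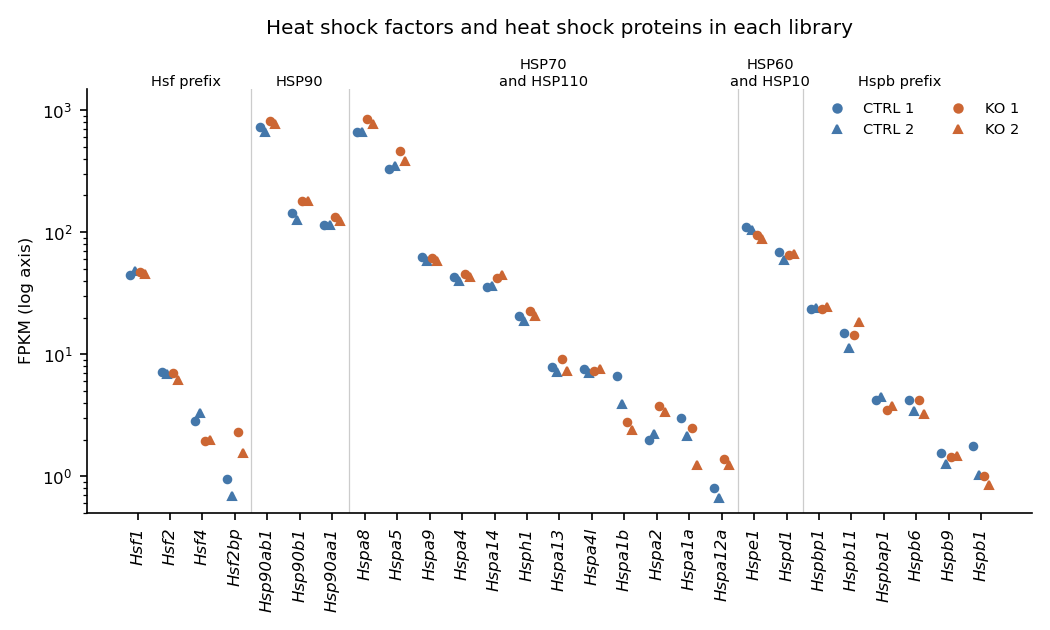
FPKM (log axis) of the heat shock factors, HSP90, HSP70 and HSP110, HSP60 and HSP10 genes and of the genes with an Hspb prefix tested, 1 point per library. Hsp90ab1 and Hspa8 lie at 661.3 FPKM or more in every library, and Hspa1a, Hspa2, Hspa12a, Hspb1 and Hspb9 at 3.80 or less.

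No heat shock factor passed the threshold. Hsf1, the main activator of heat shock genes, stood at 44.4 and 48.3 FPKM in CTRL against 47.2 and 45.2 in KO. The groups overlapped, and the log2 fold change of -0.0013 had a 95% interval from -0.17 to 0.17. Hsf2, a factor that pairs with Hsf1, stood at 7.17 and 6.88 against 6.997 and 6.12 FPKM (log2 fold change -0.089, adjusted p = 0.539). Hsf4, which is best known from the lens, stood at 2.85 and 3.33 FPKM in CTRL against 1.94 and 1.98 in KO. Both KO libraries were below both CTRL libraries, and the log2 fold change was -0.46 (SE 0.11) with an adjusted p of 0.0615.

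Hsf2bp carries the prefix by name but encodes a protein that binds Hsf2 and is not itself a heat shock factor. It stood at 0.957 and 0.695 FPKM in CTRL against 2.30 and 1.55 in KO, on 69 to 233 recovered reads per library. It passed the filter on low values through the KO libraries only, so a difference between the groups was built into its choice. Its log2 fold change was 0.67 (adjusted p = 0.0716), but 1.21 (adjusted p = 0.0413) by limma-voom, which adds no pseudocount of 1 FPKM. Its exons overlap those of Rrp1b on the opposite strand, and whether the counting used strand is not given in the sources used here. Hsf3 was listed at 0 in all 4 libraries and Hsf5 above 0 in CTRL 1 only. Of the 4 tested genes of the class, 0 passed the threshold by limma. Hsf4 and Hsf2bp, 2 of the 4, had an unadjusted p under 0.05, where all genes gave 34.7%. The 1 gene called by limma-voom was Hsf2bp, where 867 of all 11399 genes were called higher and 1024 lower.

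All 3 HSP90 genes were higher in both KO libraries than in both CTRL libraries, as were 29.0% of all genes, and 1 of the 3 passed the threshold. Hsp90b1 (ENSMUSG00000020048, GRP94, on chr10:86690209-86705509 of GRCm38) folds receptors and adhesion proteins in the ER, such as integrins and Toll-like receptors. It stood at 143.7 and 125.7 FPKM in CTRL against 180.3 and 180.0 in KO. The KO libraries were nearly equal and above both controls, and the log2 fold change was 0.42 (SE 0.078, 95% interval 0.22 to 0.62, adjusted p = 0.0423). The call ended with no filter on low values, with no variance trend, with quantile normalization and with the trend on exon length removed, at adjusted p from 0.0508 to 0.0976. The fold change over these and the other 7 settings ran from 0.31 to 0.44. Exons of Hsp90b1 overlap 1810014B01Rik on the opposite strand, and 4.97% of its 100-base stretches also occur in other transcripts.

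The cytosolic pair did not pass the threshold. Hsp90ab1, the constitutive form, stood at 725.6 and 661.3 FPKM in CTRL against 812.9 and 776.3 in KO, a log2 fold change of 0.20 (adjusted p = 0.126). Hsp90aa1, the stress-inducible form, stood at 114.5 and 114.8 against 133.5 and 122.9 FPKM, a log2 fold change of 0.16 (adjusted p = 0.144). The ratio of Hsp90ab1 to Hsp90aa1 was 6.33 and 5.76 in CTRL and 6.09 and 6.32 in KO. The groups overlapped in this ratio, while each gene was higher in KO. Of the 100-base stretches of Hsp90aa1, 38.0% also occur in transcripts of other genes, so its level depends on how shared reads were counted. All 3 fold changes stayed above 0 in each of the 15 other fits, Hsp90aa1 at 0.054 with quantile normalization being the lowest.

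The promoters of the ER chaperones are shown because they carry a motif that Hsp90b1 shares with Hspa5 and Dnajc3. The ER stress response element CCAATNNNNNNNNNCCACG, searched on both strands from 250 bases before to 50 bases after each RefSeq start on GRCm38.p6, lies in 0.119% of 32851 windows. It lies in 3 of the 72 genes of the rule that have a window, with a pair of matches in Hsp90b1 on opposite strands. The match says nothing of binding in these cells. The stretches are printed on the strand of the gene, with the element in capitals, and that of Hspa5 lies within an annotated exon.
Hsp90b1, chr10:86705513-86705676, minus strand: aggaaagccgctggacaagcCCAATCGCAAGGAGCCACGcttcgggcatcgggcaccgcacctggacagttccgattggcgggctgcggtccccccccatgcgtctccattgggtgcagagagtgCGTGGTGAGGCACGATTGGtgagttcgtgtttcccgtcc
Hspa5, chr2:34772020-34772048, plus strand: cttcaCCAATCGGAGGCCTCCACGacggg
Dnajc3, chr14:118937807-118937865, plus strand: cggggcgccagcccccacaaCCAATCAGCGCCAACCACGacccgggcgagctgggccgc

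Of the 3 genes with this element, only Hsp90b1 passed the threshold. Hspa5 (BiP), the HSP70 of the ER, stood at 332.5 and 348.3 FPKM in CTRL against 466.2 and 379.9 in KO. Both KO libraries were above both controls but lay far apart, and the log2 fold change of 0.31 (SE 0.11) had an adjusted p of 0.119. It was 0.16 without KO 1 and 0.45 without KO 2. Dnajc3 (p58IPK), a J protein of the ER that works with Hspa5, stood at 28.9 and 27.6 against 26.2 and 26.9 FPKM, with both KO libraries below the controls (log2 fold change -0.085, adjusted p = 0.361). The ratio of Hsp90b1 to Hspa5 was 0.432 and 0.361 in CTRL and 0.387 and 0.474 in KO, and the groups overlapped.

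The HSP70 and HSP110 genes included the second call. Hspa2 (ENSMUSG00000059970, on chr12:76404176-76406938) stood at 1.97 and 2.24 FPKM in CTRL against 3.80 and 3.34 in KO, on 173 to 360 recovered reads per library. The groups were apart, and the log2 fold change was 0.56 (SE 0.11, 95% interval 0.27 to 0.85, adjusted p = 0.0473). It was 0.75 by limma-voom, and the call ended with no filter, with quantile normalization and with the length trend removed, at adjusted p from 0.0509 to 0.120. Of the 12 tested genes of the class, 1 was higher and 0 were lower (8.33%, against 9.75% of all genes). Unadjusted, at p under 0.05, 5 members of the class were higher and 1 lower, or 6 of 12 together. All genes gave 16.3% higher and 18.4% lower, or 34.7% together. Hspa12a, 1 of the 5, entered the test only through its KO values.

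Hspa8 (HSC70), the constitutive cytosolic HSP70 and the most abundant of the class, stood at 663.9 and 663.5 FPKM in CTRL against 840.3 and 773.5 in KO. The controls were almost equal and both KO libraries were higher, with a log2 fold change of 0.28 (SE 0.066) and an adjusted p of 0.0591. It passed the threshold with a filter at a mean FPKM above 5 (adjusted p = 0.0460), with a robust fit (0.0460) and by limma-voom (0.0357). Of its 100-base stretches 28.5% occur in other transcripts, and the small nucleolar RNAs Snord14c, Snord14d and Snord14e lie within its annotated exons. Hspa14, an HSP70 that sits on the ribosome, stood at 35.9 and 36.1 against 42.4 and 44.9 FPKM, a log2 fold change of 0.27 (SE 0.058, adjusted p = 0.0514). Its ribosome partner, the J protein Dnajc2, stood at 47.6 and 45.3 against 46.5 and 48.7 FPKM, with overlapping groups and a log2 fold change of 0.034. Of this complex, Hspa14 was thus higher in both KO libraries and Dnajc2 was not.

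The heat-inducible pair was low. Hspa1b stood at 6.59 and 3.95 FPKM in CTRL against 2.77 and 2.39 in KO, and Hspa1a at 2.99 and 2.13 against 2.51 and 1.23. Hspa1b had the lowest fold change of all chaperone genes tested, at -0.78 (95% interval -1.34 to -0.22, adjusted p = 0.0793), and the CTRL libraries lay further from each other than the KO libraries did. The fold change was -0.47 without CTRL 1 and -1.09 without CTRL 2. Hspa1a had a log2 fold change of -0.33 (adjusted p = 0.401), which was -0.0078 without KO 2, and overlapping groups. The pair lies side by side on chromosome 17, and 49.9% of the 100-base stretches of Hspa1b and 56.5% of those of Hspa1a occur in other transcripts, mostly in each other, so the split of reads between them is uncertain. Immediate-early genes, which rise when cells are handled, summed to 3908 and 4566 FPKM in CTRL and to 4768 and 4002 in KO. The groups overlapped in that sum. Of the 12 genes of that list, 1 was past the threshold and 3 had an unadjusted p under 0.05, where all genes gave 9.75% and 34.7%. The 1 was Fos, lower in both KO libraries, with a log2 fold change of -0.44 (adjusted p = 0.0346). Egr1, Ier2 and Btg2 were higher in both KO libraries, short of the threshold, and for the rest the groups overlapped. The part of these genes in the Hspa1b values was not tested.

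The other members of the class were also short of the threshold. Hsph1 (HSP110), an exchange factor for HSP70, stood at 20.5 and 18.6 against 22.5 and 20.4 FPKM (log2 fold change 0.13, adjusted p = 0.325). Hspa4, of the same exchange family, stood at 43.2 and 39.7 against 45.8 and 42.9 (0.094, adjusted p = 0.393), and its relative Hspa4l at 6.98 to 7.57 FPKM in the 4 libraries. Hspa9 (mortalin), the HSP70 of mitochondria, stood at 63.2 and 58.2 against 62.0 and 57.7 FPKM (log2 fold change -0.019, 95% interval -0.20 to 0.16). Hspa13, a microsomal HSP70, stood at 7.84 and 7.13 against 9.14 and 7.24 (0.11, adjusted p = 0.582). Hspa12a, a distant relative, passed the filter through the KO libraries only, at 0.808 and 0.670 against 1.38 and 1.23 FPKM. Its log2 fold change was 0.41 (adjusted p = 0.104), and 0.82 (adjusted p = 0.0306) by limma-voom. Hspa1l and Hspa12b were too low to test, at most 0.694 and 0.269 FPKM.

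Hspd1 (HSP60) and Hspe1 (HSP10) encode the barrel and the lid of the mitochondrial chaperonin and lie head to head on chromosome 1. Both read away from a shared stretch that holds a pair of overlapping heat shock elements, GAANNTTCNNGAA or its reverse complement. The element was found in 0.603% of the windows searched and in 0.662% of their genes. Of the 72 genes of the rule it lies in 4, Hspd1, Hspe1, Dnajb6 and Hsph1. The stretch is printed on the strand of Hspe1, with the elements in capitals, and it lies within an annotated exon.
Hspe1 and Hspd1, chr1:55088054-55088081, plus strand: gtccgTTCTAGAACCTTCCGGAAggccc
Hspe1 stood at 109.8 and 104.5 FPKM in CTRL against 94.8 and 87.9 in KO, and Hspd1 at 68.5 and 59.5 against 65.1 and 66.9. Hspe1 was thus lower in both KO libraries (log2 fold change -0.23, SE 0.064, adjusted p = 0.0786), whereas Hspd1 overlapped (0.046, adjusted p = 0.724). The ratio of Hspe1 to Hspd1 was 1.60 and 1.76 in CTRL and 1.46 and 1.31 in KO, lower in both KO libraries. Hspe1 passed the threshold with quantile normalization only (adjusted p = 0.0470). Exons of the pair overlap on opposite strands, and 23.4% of the 100-base stretches of Hspd1 occur in other transcripts. By limma 0 of the 2 genes passed, and limma-voom called 0. Of the 2, 1 (Hspe1) had an unadjusted p under 0.05, where all genes gave 34.7%.

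The genes filed under Hspb were mostly low. Of 10 listed, 6 were tested, 0 passed the threshold, 0 had an unadjusted p under 0.05 and limma-voom called 0. Hspb1 (HSP25), the best known small heat shock protein, stood at 1.76 and 1.02 FPKM in CTRL against 1.00 and 0.843 in KO, on 27 to 52 recovered reads (log2 fold change -0.30, adjusted p = 0.321). Hspb6 stood at 3.24 to 4.21 FPKM and Hspb9 at 1.27 to 1.55 FPKM over the 4 libraries. The names Hspbp1, Hspb11 and Hspbap1 do not belong to small heat shock proteins. Hspbp1, an exchange factor for HSP70, stood at 23.3 and 24.1 against 23.6 and 24.5 FPKM. Hspb11 (Ift25), a subunit of the transport machinery of cilia, stood at 15.0 and 11.2 against 14.4 and 18.2 FPKM, and Hspbap1, which binds a small heat shock protein, at 4.236 and 4.501 against 3.505 and 3.747. Hspb2, Hspb7 and Hspb8 did not exceed 0.0671 FPKM in any library, and Hspb3 was listed at 0 in all 4.

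J proteins formed the largest family, with 45 genes listed and 37 tested. Of these, 0 were higher and 1 was lower past the threshold, with 5 higher and 5 lower at an unadjusted p under 0.05. The 10 at an unadjusted p are 27.0% of the family, against 34.7% of all genes. KO was above CTRL in both libraries in 9 and below in 16, or 67.6% of the family together, against 64.5% of all genes, of which more were also below than above. Dnajc21 (on chr15:10446756-10470516) works with HSP70 in the maturation of the large ribosomal subunit. It stood at 20.6 and 19.6 FPKM in CTRL against 16.3 and 15.9 in KO, and the groups did not overlap. Its log2 fold change was -0.31 (SE 0.064, 95% interval -0.47 to -0.14, adjusted p = 0.0498). The call lies at the threshold and ended in 6 of 11 other settings, at adjusted p from 0.0504 with a pseudocount of 0.1 to 0.0966 with no filter, while the fold change stayed between -0.33 and -0.29.

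Among the A type, which resemble the bacterial DnaJ, Dnaja2 stood at 50.4 and 46.7 FPKM in CTRL against 58.3 and 57.6 in KO (log2 fold change 0.25, SE 0.062, adjusted p = 0.0625). It is a cytosolic partner of Hspa8, and both were higher in both KO libraries. Dnaja1, the closest cytosolic relative, overlapped at 36.5 and 34.8 against 38.5 and 32.1 (log2 fold change -0.018). Dnaja3 (Tid1), the J protein of the mitochondrial matrix, stood at 14.7 and 13.9 against 12.9 and 13.8 (-0.092, adjusted p = 0.412). Dnaja4 stood at 10.9 and 11.3 against 10.4 and 8.18, and 41.5% of its 100-base stretches are shared, mostly with the neighbouring Wdr61. Of these 4 genes 0 passed by limma, 1 had an unadjusted p under 0.05 (25.0%, against 34.7% of all genes) and limma-voom called 0.

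The B type held no call. Of 10 tested, 0 passed by limma, 0 had an unadjusted p under 0.05 and limma-voom called 0, with log2 fold changes from -0.24 to 0.14. Dnajb1 (HSP40), the classical heat-inducible partner of HSP70, stood at 51.2 and 53.6 FPKM in CTRL against 58.5 and 55.5 in KO (log2 fold change 0.12, adjusted p = 0.229). Dnajb6, which holds back the clumping of polyglutamine proteins, stood at 28.4 and 25.6 against 28.2 and 27.4. Dnajb9 (ERdj4), which restrains the stress sensor IRE1 in the ER, stood at 98.4 and 97.5 against 90.9 and 75.2 FPKM. Both KO libraries were lower, KO 2 more so than KO 1 (log2 fold change -0.24, adjusted p = 0.156, and -0.11 without KO 2). Dnajb11 (ERdj3), another ER J protein, stood at 31.8 and 27.8 against 33.4 and 32.5 (0.14, adjusted p = 0.267). Dnajb3, Dnajb7 and Dnajb8 were too low to test.

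The C type, which shares little but the J domain, spread both ways. At an unadjusted p under 0.05, 4 of its 23 tested genes were higher and 5 lower. Together they are 39.1%, near the 34.7% of all genes. Dnajc15, a protein of the inner mitochondrial membrane that slows respiration, stood at 40.0 and 36.0 FPKM in CTRL and 45.5 and 62.3 in KO. Its log2 fold change of 0.48 (adjusted p = 0.104), the highest of the type, was 0.25 without KO 2 and 0.70 without KO 1. Dnajc7, which links HSP70 with HSP90, stood at 104.8 and 103.8 against 86.9 and 94.7 (-0.20, adjusted p = 0.0967), and its exons overlap Cnp and Nkiras2 on the other strand. With quantile normalization Dnajc7 and Hspe1 were the 2 genes called lower, Dnajc7 at -0.30 (adjusted p = 0.0468), and Dnajc21 was not called. Dnajc5 (CSP), a J protein of secretory vesicles, stood at 49.1 and 52.4 against 45.8 and 45.4 FPKM (-0.15, adjusted p = 0.147). These were all short of the threshold.

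The next genes of this type were chosen after their values were seen. Dnajc8, which associates with the spliceosome, stood at 114.6 and 113.4 FPKM in CTRL against 132.5 and 144.5 in KO (log2 fold change 0.28, adjusted p = 0.0555, and 0.0417 by limma-voom). Dnajc9, a histone chaperone, stood at 57.6 and 53.9 against 62.8 and 66.0 (0.20, adjusted p = 0.0919). Dnajc13, which acts on endosomes, stood at 12.3 and 12.5 against 9.99 and 10.3 FPKM (-0.27, adjusted p = 0.0636, and 0.0281 by limma-voom). The nuclear pair was thus higher and the endosomal gene lower in both KO libraries, all short of the threshold by limma. Dnajc5b, Dnajc5g, Dnajc6, Dnajc22 and Dnajc28 were too low to test.

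The filter at 1 FPKM decides by the second highest of the 4 libraries. Just outside it lay Dnajc6 at 0.790, Dnajc28 at 0.718 and Dnajb3 at 0.665 FPKM. Just inside lay Hspb1 at 1.02, Hspa12a at 1.23 and Hspb9 at 1.48 FPKM. Dnajb3 stood at 0.180 and 0.341 FPKM in CTRL against 0.780 and 0.665 in KO.

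The CCT chaperonin, which folds actin and tubulin, is a ring of 8 different subunits, of which Tcp1 (CCT1) does not carry the Cct prefix and is given beside the others. Cct2 stood at 98.9 and 97.9 FPKM in CTRL against 114.6 and 118.4 in KO. The libraries of each group were close together and the groups apart, with a log2 fold change of 0.24 (SE 0.052, 95% interval 0.11 to 0.37) and an adjusted p of 0.0509. The other 6 Cct subunits tested had log2 fold changes from -0.027 (Cct7) to 0.082 (Cct3), and Tcp1 0.090 (adjusted p = 0.402). Cct3, at 80.1 and 77.1 FPKM in CTRL against 83.9 and 82.5 in KO, was also higher in both KO libraries. So was Tcp1, at 82.0 and 74.0 against 83.9 and 82.0, while Cct7 was lower in both. Cct5, the most abundant, stood at 142.6 and 141.2 against 140.1 and 143.9 FPKM, with a 95% interval of its log2 fold change from -0.13 to 0.13. Cct4 stood at 99.4 to 106.9 FPKM, Cct8 at 78.1 to 88.0 and Cct6a, the least abundant, at 38.4 to 39.9.

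Within the summed FPKM of the 8 subunits, Cct2 took 13.8% and 14.3% in CTRL and 15.7% and 16.2% in KO. Cct5 took 19.9% and 20.6% against 19.2% and 19.7%, and Cct6a 5.56% and 5.61% against 5.32% and 5.45%. The share of Cct2 was higher in both KO libraries, as was that of Cct3, at 11.17% and 11.25% in CTRL and 11.51% and 11.28% in KO. Those of Cct4, Cct5, Cct6a and Cct7 were lower in both, and since shares sum to the whole, they fall where Cct2 is higher even with little change in their own FPKM. Of the 7 tested Cct genes 0 passed by limma, and limma-voom called 1 (Cct2, adjusted p = 0.0406). By limma 1 had an unadjusted p under 0.05 (14.3%, against 34.7% of all genes). Cct6b and Cct8l1, relatives known from the testis, did not exceed 0.326 FPKM.

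**Figure D3:**
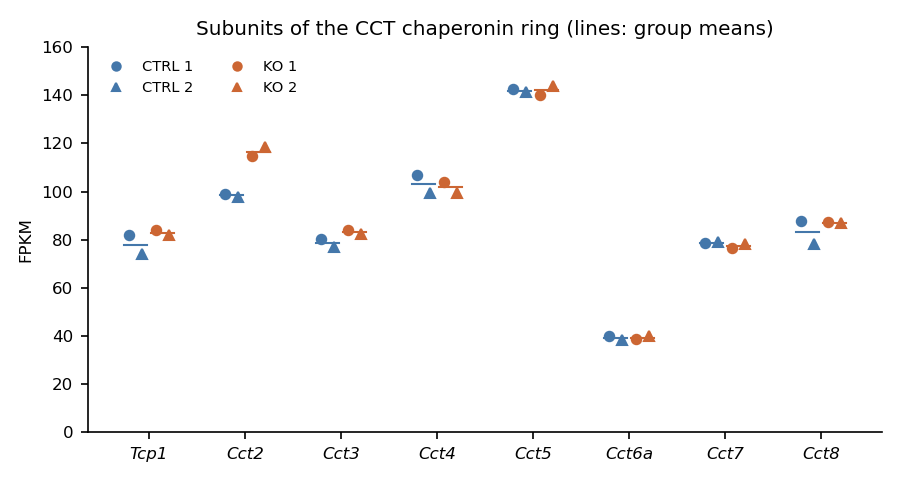
FPKM of the 8 subunit genes of the CCT ring in each library, with lines at the group means of 2 libraries. Cct2 stands at 98.9 and 97.9 in CTRL and 114.6 and 118.4 in KO, whereas for Cct4, Cct5, Cct6a and Cct8 the groups overlap. Cct3 and Tcp1 also stand higher in both KO libraries, and Cct7 lower in both.

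By compartment, the 11 tested genes of the ER had a median log2 fold change of 0.047, with 1 past the threshold (Hsp90b1, 9.09%, against 9.75% of all genes) and 3 at an unadjusted p under 0.05 (27.3%, against 34.7%). KO was above CTRL in both libraries in 4 of them and below in 5, or 81.8% together, against 64.5% of all genes. Hspa5 and Hsp90b1, the HSP70 and HSP90 of the ER, were among those above, with the J proteins Dnajb11 and Dnajb12, and the J proteins Dnajb9, Dnajb14, Dnajc3, Dnajc10 and Dnajc16 were those below. Dnajc10, a reductase, stood at 17.9 and 17.9 against 16.3 and 16.9 FPKM (adjusted p = 0.294). The 8 mitochondrial genes had a median of -0.0026, with 0 past the threshold by limma and 0 by limma-voom. Of these 8, 2 had an unadjusted p under 0.05 (25.0%, against 34.7% of all genes). The genes were sorted into these compartments after their values were seen.

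ER chaperones are abundant in cells that secrete antibody, so plasma cell markers are given beside them. The list summed to 1776 and 1009 FPKM in CTRL and to 2654 and 1690 in KO, nearly all from Ighm and Igkc, and the groups overlapped. The sum overlapped through Igkc, whereas Ighm was higher in both KO libraries, at 892.5 and 637.2 FPKM in CTRL against 1238 and 1162 in KO (log2 fold change 0.67, adjusted p = 0.0629). Derl3, at 1.89 and 1.86 against 4.30 and 2.53, and the B cell gene Cd22, at 4.2045 and 3.25 against 8.58 and 5.86 (0.78, adjusted p = 0.0633), were also higher in both. Of 7 tested, 0 passed the threshold by limma, 2 had an unadjusted p under 0.05 and limma-voom called 1. Sdc1, Tnfrsf17 and Eaf2 were under 1 FPKM in every library. The part of these markers in the ER values was not tested.

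Partner genes that work with these chaperones were taken from a list of 65, of which 64 were tested. Fkbp5 and Ahsa1 rose, and Trap1 and Tomm70a fell, so 4 of 64 (6.25%) passed the threshold where all genes gave 9.75%. The median log2 fold change of the partner genes was 0.083. At an unadjusted p under 0.05, 18 were higher and 7 lower (39.1%). All genes gave 34.7%, with 16.3% higher and 18.4% lower. In 45 of 64 (70.3%) the groups did not overlap, 30 with KO above and 15 below. Among all genes tested this was 64.5%, with 29.0% above and 35.5% below. By both measures more partner genes were higher than lower in KO, unlike all genes, and the difference was not tested.

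Fkbp5, a prolyl isomerase that docks on HSP90 in steroid receptor complexes, stood at 24.2 and 22.5 FPKM in CTRL against 30.8 and 31.3 in KO. Its log2 fold change was 0.40 (95% interval 0.23 to 0.56, adjusted p = 0.0379). Ahsa1, which speeds up the ATP use of HSP90, stood at 58.2 and 56.9 against 70.7 and 73.0, a log2 fold change of 0.32 (0.18 to 0.45, adjusted p = 0.0394). Both cofactors of HSP90 were thus higher with no overlap of the groups. The 24 tested co-chaperones of HSP70 and HSP90 had a median log2 fold change of 0.13. Of them 2 were higher and 1 lower (12.5%, against 9.75% of all genes).

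Trap1, the HSP90 of mitochondria, fell, while the 3 other HSP90 genes were higher in both KO libraries. It stood at 44.0 and 44.4 FPKM in CTRL against 34.9 and 36.0 in KO (log2 fold change -0.31, 95% interval -0.45 to -0.17, adjusted p = 0.0405). Tomm70a, the receptor of the outer mitochondrial membrane on which HSP70 and HSP90 dock, stood at 26.2 and 27.2 against 21.4 and 21.9 (-0.29, -0.44 to -0.14, adjusted p = 0.0486). Exons of Trap1 overlap those of Dnase1, and exons of Tomm70a those of Nit2, both on the opposite strand. The 8 mitochondrial chaperones and proteases had a median of -0.10. The call of each of the 4 genes ended with no filter, with no variance trend and without any 1 library. That of Ahsa1 also ended with quantile normalization, and that of Tomm70a with 3 further settings.

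The 22 ER folding and unfolded protein response genes held 0 past the threshold by limma and 2 by limma-voom, with 7 higher and 0 lower at an unadjusted p under 0.05 and a median of 0.12. The 7 are 31.8% of the list, below the 34.7% of all genes in either direction and above the 16.3% of all genes that were higher, and the difference was not tested. The genes named next were chosen after their values were seen. Calr, a calcium-binding lectin that folds glycoproteins beside Hspa5, stood at 184.7 and 180.7 FPKM in CTRL against 218.7 and 211.9 in KO (log2 fold change 0.24, adjusted p = 0.0539). Herpud1, of the ER degradation machinery, stood at 46.8 and 46.2 against 61.0 and 54.5 (0.30, adjusted p = 0.0599), and Xbp1, a transcription factor of the unfolded protein response, at 53.7 and 56.4 against 70.0 and 63.2 (0.27, adjusted p = 0.0728). Stress transcripts Ddit3, at 27.9 and 25.5 against 28.1 and 24.6, and Atf6, at 5.67 and 5.64 against 5.29 and 5.65, overlapped between the groups. Another, Atf4, was higher in both KO libraries, at 120.2 and 120.9 against 139.7 and 130.2 (0.16, adjusted p = 0.126). In 13 of the 22 genes the groups did not overlap (59.1%, against 64.5% of all genes). KO was above in 10 of them and below in 3, where all genes gave 29.0% and 35.5%. The 10 chaperonin and prefoldin genes had a median of -0.0068, with 0 past the threshold by limma and 0 by limma-voom. Of these 10, 4 had an unadjusted p under 0.05 (40.0%, against 34.7% of all genes).

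**Figure D4:**
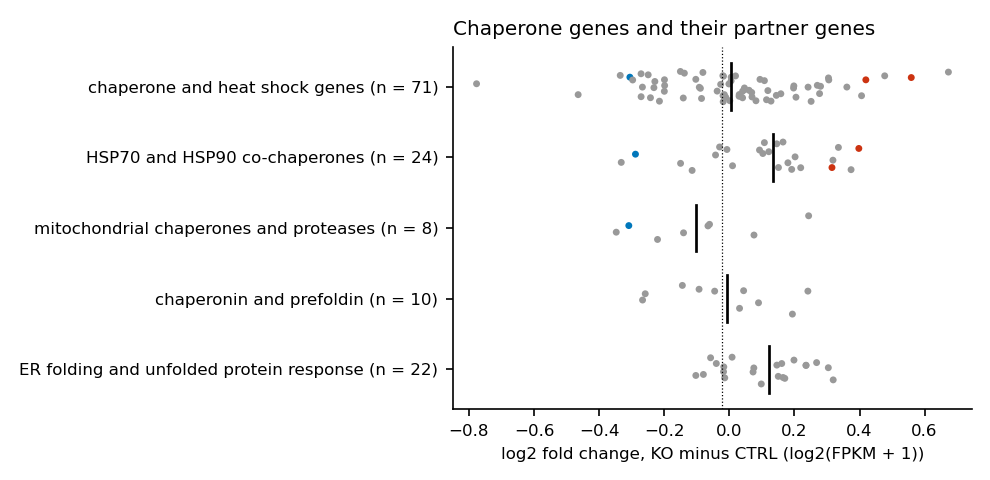
Log2 fold changes (KO minus CTRL, on log2(FPKM + 1), x axis) of the 71 chaperone and heat shock genes and of the 4 lists of partner genes tested. Each point is a gene, red and blue mark genes higher and lower past the threshold, black bars are medians and the dotted line is the median of all genes at -0.022. The co-chaperone median stands at 0.13, that of ER folding genes at 0.12 and that of mitochondrial chaperones and proteases at -0.10.

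Gene length and level differ between chaperone genes, and the values are given as a description. Over the 71 genes, the Spearman correlation of the log2 fold change with exon length was -0.062, and over all genes -0.18. With mean FPKM it was 0.29 for the chaperone genes and 0.14 for all genes. The points share the same 4 libraries and are not independent replicates.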

How the data were processed

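Poly(A) RNA of splenic Treg cells was captured on oligo(dT) beads and read from both ends over 150 bp, in 2 CTRL and 2 KO libraries. The deposited values were FPKM made by the authors, for 24087 genes. Before that, the authors mapped reads to mm10 with HISAT2 (version 2.2.1) and counted them with featureCounts (version 2.0.1), per the submitters' processing notes. The annotation version, gene lengths, use of strand and handling of multi-mapped reads are not given in the sources used here. The control columns, named WT and a number, were read as the CTRL libraries of those numbers.

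The groups were tested with limma (lmFit and eBayes, trend on; version 3.58.1 under R 4.3.3) using log2(FPKM + 1) of the 11399 genes that reached 1 FPKM in 2 or more libraries. P-values are two-sided and, where called adjusted, were corrected by Benjamini-Hochberg over these genes, with 0.05 as the threshold. The pseudocount of 1 understates fold changes of low genes. The authors' own test, edgeR on counts, was not used because the deposited values are not counts. In 19887 of 19888 genes above 0 the 4 FPKM values, at the relative depths of the libraries, were whole multiples of a common step (to within at most 0.01 of a read), from which a lower bound on the reads of each value was recovered. The limma fit, and not the recovery of reads, was tested on simulated libraries. The changes planted there were larger than those of the chaperone genes called here, so it does not show how well such changes are found.

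Positions, exon overlaps and 100-base stretches shared with other transcripts came from GENCODE vM21 on GRCm38, the build of mm10. Promoter windows came from RefSeq on GRCm38.p6, without those on chromosome 18. Tables were made with Python 3.11.15, numpy 2.4.6 and pandas 2.3.3. The members, the partner list, the marker lists for Treg cells, B cells, plasma cells, CD8 T cells, myeloid and erythroid cells, immediate-early genes and sex-linked genes, and the tests were chosen with earlier results of these data known. Genes named were those past the threshold, a fixed core of the families, the 5 highest and 5 lowest fold changes, those nearest the filter, and others said to be chosen after their values were seen. Other settings were 10 planned ones, leaving out each library in turn, and limma-voom on the recovered reads, which was chosen after seeing the data. Samples with the same replicate number were checked for shared deviations.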

Additional observations from a re-analysis of the deposited data

How the results depend on the processing

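The fits were repeated in 11 other settings and without each library in turn. For single genes named in the text, 450 of the 511 values from other settings kept their direction and side of the threshold, 25 calls ended, 18 values came past it and 18 changed sign.

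Over all genes, 0 and 0 were higher and lower with no filter, 315 higher with no variance trend, 968 and 805 with the replicate block, 385 and 348 with the exon length trend removed, and 1024 lower by limma-voom. Of the chaperone genes, the number higher was 0 with no filter, quantile normalization or the length trend removed, 1 with no variance trend, 4 with a mean FPKM above 5, 5 with a robust fit, 6 with the replicate block and 8 by limma-voom. The number lower was 0 with a pseudocount of 0.1, no filter, no variance trend, median-ratio scaling or the length trend removed, 2 with quantile normalization or limma-voom and 3 with the replicate block. Of the partner genes 0 were higher and 0 lower with no filter or no variance trend, 4 higher with the replicate block, 5 higher by limma-voom and 1 lower with median-ratio scaling.

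By class, 1 CCT gene was higher with a mean FPKM above 5, a robust fit or limma-voom. In the HSF class 1 was higher with the replicate block or limma-voom and 1 lower with the block. In HSP60 and HSP10, 1 was lower with quantile normalization. In HSP70 and HSP110, 0 were higher with no filter, quantile normalization or the length trend removed, 2 with a mean FPKM above 5, 3 with a robust fit or the replicate block and 4 by limma-voom, and 1 was lower with the block. In HSP90, 0 were higher with no filter, no variance trend, quantile normalization or the length trend removed. Of the J protein C type, 1 was higher with the replicate block or limma-voom, 0 were lower with a pseudocount of 0.1, no filter, no variance trend, median-ratio scaling or the length trend removed, and 2 by limma-voom. The cause of these shifts was not tested.

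Leaving out each library in turn, 0 to 1 of all genes were higher and 0 to 1 lower, and 0 to 0 chaperone genes and 0 to 0 partner genes in each direction, as in every class. The median of the chaperone genes ran from -0.017 to 0.040.

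The replicate block changed calls as given above. With it Hsf2bp (adjusted p = 0.0254), Hspa8 (0.0473), Hspa14 (0.0491), Dnajc8 (0.0439), Hsf4 (0.0496) and Hspa1b (0.0214) passed the threshold. The replicate numbers are shared by name only, and the deviations of same-numbered samples from their group means correlated across genes with a Pearson r of 0.342 and a Spearman rho of 0.055.

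Values near 0 changed sign. With quantile normalization these were Cct3 (-0.0011), Cct5 (-0.10), Cct6a (-0.043), Cct8 (-0.010), Dnajc2 (-0.011) and Hspd1 (-0.024). With the length trend removed they were Cct5 (-0.047), Cct6a (-0.018), Cct7 (0.0067), Dnaja1 (0.035), Hsf1 (0.036) and Hspd1 (-0.0062). With the same summed FPKM they were Cct5 (-0.013) and Cct6a (-0.0085), with median-ratio scaling Dnaja1 (0.00020) and Hsf1 (0.017), and by limma-voom Cct5 (-0.0047) and Cct6a (-0.00022). Without single libraries the log2 fold change ran from -0.072 to 0.033 for Cct4, -0.018 to 0.021 for Cct5, -0.021 to 0.032 for Cct6a, -0.015 to 0.15 for Cct8, -0.15 to 0.11 for Dnaja1, -0.030 to 0.11 for Dnajb6, -0.00060 to 0.070 for Dnajc2, -0.061 to 0.059 for Hsf1, -0.042 to 0.26 for Hspa13, -0.078 to 0.040 for Hspa9 and -0.053 to 0.15 for Hspd1.

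The limit on every comparison was the spread between 2 libraries per group. Genes under 4 FPKM rested on few reads, Hspb1 on 27 to 52 per library, and depth limits what their values can show.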
